A study of Mus musculus with 4 samples.

Results

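The genes described here encode serpins, plasminogen activators and the proteins that receive them at the cell surface. They were chosen by gene symbol: Serpinb2, Serpinf1, Serpine2, Serpinh1, Serping1, Plat, Plau, Plaur and Thbd. Of these 9 genes, 8 were found on the array, which names 18194 genes, and they were measured by 12 of its 45101 probe sets. Serpine2 is not analysed here, because no probe set was assigned to it. The list was drawn up with the difference between the knockout and wild-type cells already known, so that difference is given for these genes as a description and without a test. The cells were mouse embryonic stem (ES) cells, which come from the early embryo and can form all its tissues. They fell into 2 groups: clones 1 and 2 in which the gene of the zinc finger transcription factor Klf5 was knocked out (Klf5 KO), and clones 1 and 2 that were wild type (WT). Both groups were cultured in ES medium with 15% fetal bovine serum and the cytokine LIF, which holds mouse ES cells in the undifferentiated state. Each clone gave 1 Affymetrix array of total RNA. Nothing in the sources names the strain, the allele or feeder cells, and 2 clones per group is a narrow basis for a statement about a genotype.

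Plasminogen is a circulating zymogen that is cut into plasmin, a protease that dissolves fibrin and degrades extracellular matrix. The cut is made by tissue plasminogen activator (Plat) and urokinase (Plau), and urokinase is held at the cell surface by its receptor (Plaur). Serpins are a protein family named for its serine protease inhibitors: Serpinb2 (plasminogen activator inhibitor 2) inhibits urokinase, Serpine2 (protease nexin 1) inhibits thrombin and the activators, and Serping1 (the C1 inhibitor) blocks the first complement proteases and plasma kallikrein. Serpinf1 (pigment epithelium-derived factor) and Serpinh1 (Hsp47, the collagen chaperone of the endoplasmic reticulum) share the fold but do not inhibit proteases. Thrombomodulin (Thbd) binds thrombin and turns it from a clotting enzyme into an activator of protein C. Plat and Thbd are long known from the parietal endoderm of the mouse embryo.

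Promoter sequences are shown for 3 of the genes, those of Serpinb2 and Serpinf1 because both were far brighter in Klf5 KO clones, and that of Plaur because its groups lay close together. The sequences are from RefSeq (mouse build GRCm38.p6), which gave 6 start sites for 5 of the 9 genes, and each runs from 250 bases before the start of transcription to 50 after it, 5′ to 3′ on the strand of the gene. That of Serpinb2 lies at chr1:107511173-107511472 on the plus strand, that of Serpinf1 at chr11:75422574-75422873 on the minus strand, and that of Plaur at chr7:24462233-24462532 on the plus strand. Capitals mark matches on either strand to 4 motifs. The letters GGGNGGGG stand for a G-rich element of the kind bound by Sp and Kruppel-like factors. The box CACCC is known from promoters that Kruppel-like factors regulate. The letters GGGCGG are the core of the GC box and can overlap the G-rich element. The letters TGANTCA are those of the AP-1 type, bound by Fos and Jun proteins.
Serpinb2: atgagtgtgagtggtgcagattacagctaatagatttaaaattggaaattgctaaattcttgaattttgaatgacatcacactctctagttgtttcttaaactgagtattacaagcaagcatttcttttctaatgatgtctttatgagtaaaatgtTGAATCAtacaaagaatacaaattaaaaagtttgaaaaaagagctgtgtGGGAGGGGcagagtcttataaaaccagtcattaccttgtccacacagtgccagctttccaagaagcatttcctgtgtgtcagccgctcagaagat
Serpinf1: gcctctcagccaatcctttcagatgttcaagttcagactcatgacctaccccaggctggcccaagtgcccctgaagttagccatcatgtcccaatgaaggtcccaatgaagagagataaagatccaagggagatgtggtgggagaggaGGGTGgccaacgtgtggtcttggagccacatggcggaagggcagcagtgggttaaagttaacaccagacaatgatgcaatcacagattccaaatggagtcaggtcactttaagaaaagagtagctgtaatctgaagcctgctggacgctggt
Plaur: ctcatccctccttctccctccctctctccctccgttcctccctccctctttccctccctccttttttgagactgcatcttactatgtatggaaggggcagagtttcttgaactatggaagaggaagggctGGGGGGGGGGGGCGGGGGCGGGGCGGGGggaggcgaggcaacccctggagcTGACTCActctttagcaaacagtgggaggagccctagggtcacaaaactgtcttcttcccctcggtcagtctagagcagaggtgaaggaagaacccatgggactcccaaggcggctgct
The Serpinb2 window held TGAATCA 94 bases before the start and GGGAGGGG 45 bases before it, with no CACCC and no GC box. A second start of Serpinb2, at chr1:107511260-107511559, covers the same matches. The Plaur window held TGACTCA 69 bases before the start, and a run of G and C with 8 overlapping matches to GGGNGGGG, 3 of which contain a GC box. The Serpinf1 window held a single CACCC match on the opposite strand, 102 bases before the start. In 32851 promoters of this length, GGGNGGGG occurred in 33.2%, CACCC in 57.5%, GGGCGG in 35.7% and TGANTCA in 7.8%. The G and C content was 35.3% for Serpinb2, 50.7% for Serpinf1, 59.3% for Plaur, 62.3% for Serpinh1 and 77.7% for Serpine2, beside a median of 52.7% over all these promoters. A match to these letters does not show that a factor binds there.

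The arrays as deposited differed in brightness by up to 1.65 times, with trimmed means (2% removed at each end) of 137.1 to 149.8 in the Klf5 KO clones and 138.7 to 226.3 in the WT clones, so they were quantile normalized, and intensities below are normalized unless called deposited. Klf5, the gene knocked out, read 34.8 and 49.9 in Klf5 KO clones 1 and 2 on its brightest probe set, against 2399 and 1782 in WT clones 1 and 2, which separated the arrays as labelled. A dimmer Klf5 probe set differed far less, at 82.6 and 61 in Klf5 KO clones, against 102.3 and 88.6 in WT clones. The groups overlapped on the dimmest one. Log2 fold changes are of log2(intensity + 16), KO minus WT, with the moderated standard error (SE) from limma and n = 2 clones per group, and they understate the change of dim genes. Probe sets whose mean over the arrays was equivalent to an intensity under 13.05 were left out of the fit. Over all 27022 probe sets kept, 2.44% were higher and 1.25% lower in Klf5 KO clones at an adjusted p under 0.05 (659 and 337). With each array centred on its median instead, the split was 640 higher and 1420 lower. No value here can tell more cells of one kind from more RNA per cell.

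Serpinb2 and Serpinf1 showed by far the widest gaps of the group. Serpinb2, the urokinase inhibitor, read 312.3 and 175.8 in Klf5 KO clones, against 2.40 and 5.06 in WT clones. Both WT readings lay below the filter intensity, so the gene entered the fit only because of its level in the Klf5 KO clones. Its log2 fold change was 3.67 ± 0.26 (SE), or 12.7-fold on this scale. The size of that change depends on the constant added before the logarithm: it was 5.70 with a constant of 1 and 2.15 with one of 64. Serpinf1, a secreted protein first known as a neurotrophic and anti-angiogenic factor, read 551.6 and 567.2 in Klf5 KO clones, against 32.3 and 49.9 in WT clones, on its brighter probe set. A second Serpinf1 probe set (suffix _a_at, which marks probes shared by transcripts of one gene) read 165 and 169.1 in Klf5 KO clones, against 7.93 and 8.10 in WT clones. The 2 probe sets gave log2 fold changes of 3.35 ± 0.21 and 2.93 ± 0.18, and for both the dimmer of the Klf5 KO clones was above the brighter of the WT clones. Both WT readings of the second probe set were under the filter intensity, so it too entered the fit only because of its level in the Klf5 KO clones. The groups were apart in the deposited intensities too, where Serpinb2 read 255.6 and 164.6 in Klf5 KO clones, against 3.03 and 3.93 in WT clones.

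**Figure D1:**
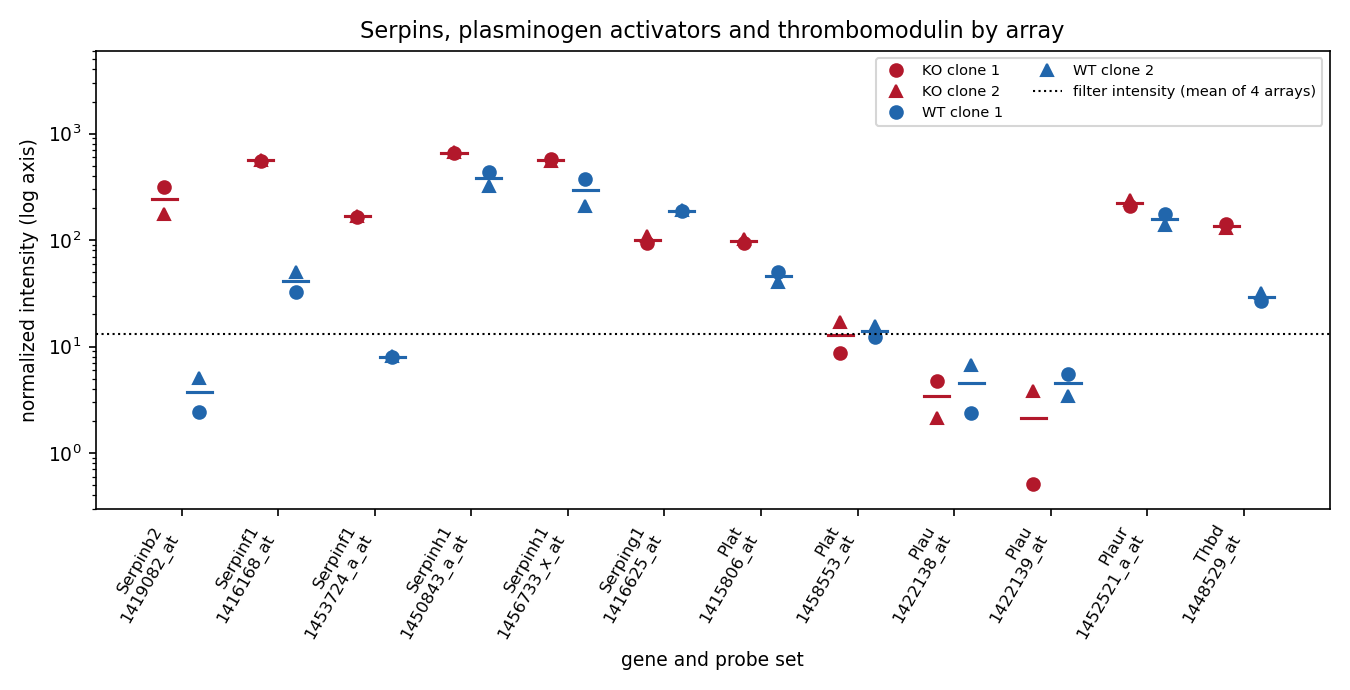
Normalized intensity (log axis) of the 12 probe sets of 8 genes, with Klf5 KO clones in red left of WT clones in blue, circles for clone 1, triangles for clone 2 and a bar at each group's mean; the dotted line is the filter intensity of 13.05. Serpinb2, Serpinf1 and Thbd stood furthest apart, Serping1 was the only one of the kept probe sets with both Klf5 KO clones below both WT clones, and Plau lay under the line in every clone.

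The receptor-like members were less uniform. Thbd, thrombomodulin, read 141.8 and 130.6 in Klf5 KO clones, against 26.9 and 31.9 in WT clones. Its groups were clearly separate, and its log2 fold change was 1.75 ± 0.18, or 3.36-fold. Plaur, the urokinase receptor, read 207.3 and 239.6 in Klf5 KO clones, against 174.9 and 137 in WT clones. The gap was narrow, with a log2 fold change of 0.48 ± 0.20 (95% confidence interval 0.04 to 0.93). In the deposited intensities the Plaur groups overlapped, at 171.7 and 223.7 in Klf5 KO clones, against 244.5 and 114.9 in WT clones, and the log2 fold change was 0.20.

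The activators were read at modest or very low intensity. Plat, tissue plasminogen activator, read 94.3 and 103.2 in Klf5 KO clones, against 50.5 and 40.7 in WT clones, with a log2 fold change of 0.90 ± 0.19. Its groups did not overlap on this probe set. A second Plat probe set lay at the filter intensity, at 8.76 and 16.9 in Klf5 KO clones and 12.4 and 15.4 in WT clones, and its groups overlapped (log2 fold change -0.06 ± 0.20, and 0.14 without KO clone 1). Where on the transcript each probe set lies is not stated. Plau, urokinase, was below the filter intensity in every clone on both of its probe sets, at 4.71 and 2.14 in Klf5 KO clones and 2.37 and 6.64 in WT clones on one, and at 0.51 and 3.79 in Klf5 KO clones and 5.53 and 3.46 in WT clones on the other. Neither probe set was kept, and a difference in Plau was not detectable at this brightness.

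Serpinh1 and Serping1 moved in opposite directions. Serpinh1, the collagen chaperone, read 658 and 667.4 in Klf5 KO clones, against 438.4 and 320.4 in WT clones, with a log2 fold change of 0.80 ± 0.20. Its other probe set (suffix _x_at, which marks probes that can match unrelated transcripts) read 576.7 and 549.8 in Klf5 KO clones, against 376.7 and 209.3 in WT clones, a log2 fold change of 0.96 ± 0.26. On both probe sets the WT clones differed from each other more than the Klf5 KO clones did. Without WT clone 2, the dimmer WT clone, the log2 fold changes were 0.57 and 0.56, and in the deposited intensities the groups overlapped, with WT clone 1 at 627.4 on the first probe set, above both Klf5 KO clones at 538.1 and 608.8. Serping1, the C1 inhibitor, read 93 and 108.3 in Klf5 KO clones, against 185.7 and 191.1 in WT clones. It was the one kept probe set with both Klf5 KO clones below both WT clones, in the normalized and the deposited intensities alike, and its log2 fold change was -0.81 ± 0.18, or 1.76-fold lower in Klf5 KO clones.

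In the fit over all probe sets, 6 of the 10 kept probe sets of these genes were past the threshold: 5 higher (Serpinb2, both of Serpinf1, Plat and Thbd, beside 2.44% of all) and 1 lower (Serping1, beside 1.25% of all). These counts describe genes picked with the same contrast in view and are no evidence about the group as a whole. The groups did not overlap for 9 of the 10, with 8 higher, beside 23.9% of all probe sets, and 1 lower, beside 28.4%. In the deposited intensities, 4 of the 10 overlapped. Serpinb2 and the second Serpinf1 probe set are counted here although they passed the filter through the Klf5 KO clones alone. Plat and Serping1 were not past the threshold with any one array left out: the log2 fold change of Plat was then 0.79 to 0.99 and that of Serping1 -0.91 to -0.73. Refits of the same 4 arrays add nothing independent for genes chosen on this contrast, so the values under other settings are given as a range. Over the 12 alternatives the log2 fold change was 2.15 to 5.70 for Serpinb2, 2.57 to 3.77 for Serpinf1 on its brighter probe set, 1.10 to 2.18 for Thbd and 0.20 to 0.62 for Plaur.

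**Figure D2:**
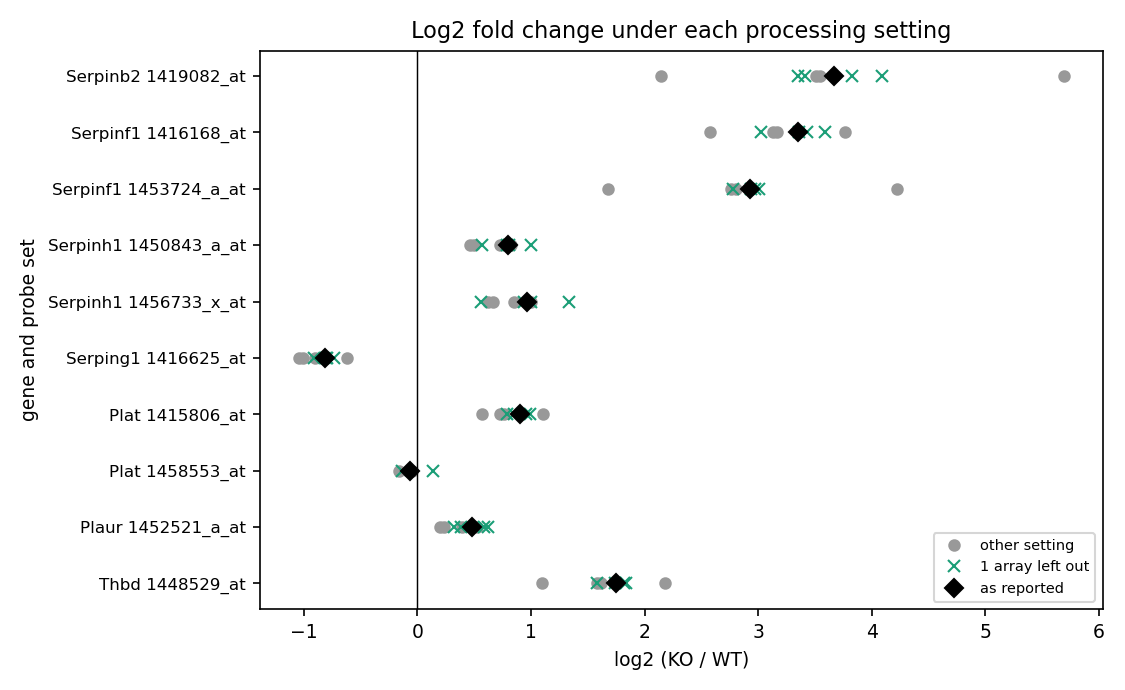
Log2 fold change (KO over WT) of each of the 10 kept probe sets as reported (black diamonds), with 1 array left out (green crosses) and under the other settings (grey circles). The values of Serpinb2, Serpinf1 and Thbd stayed at or above 1.10, and the dim probe set of Plat lay on both sides of 0.

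The genes whose values over the 4 arrays lay nearest to those of Serpinb2 and Serpinf1, by Euclidean distance between mean-centred log2 values among 13022 other genes, are named as a description. For Serpinb2 they were Grem1 (a BMP antagonist, distance 0.41), Gng11 (a G protein gamma subunit, 0.54) and Inhba (a subunit of activin, 0.57). Grem1 read 607.9 and 477 in Klf5 KO clones, against 30.7 and 25.2 in WT clones. Like Serpinb2, all 3 were brighter in KO clone 1 than in KO clone 2, a likeness that the choice by distance favours. For Serpinf1 they were Bgn (the proteoglycan biglycan, distance 0.34), Col5a2 (a collagen V chain, 0.48) and Fbln2 (fibulin 2, a matrix protein, 0.49). Bgn read 1208 in both Klf5 KO clones, against 61.5 and 103 in WT clones. Its lower WT reading was in clone 1, as for Serpinf1, which the choice by distance likewise favours.

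Most serpin genes had no probe set above the filter. No other measured serpin differed as far between the groups as Serpinb2 or Serpinf1, which were chosen with this contrast known. The array named 36 serpin genes besides those chosen. For 25 of them (69.4%, beside 28.4% of all named genes) no probe set passed the filter, among them every clade A serpin, a clade that includes many plasma proteins of the liver. Serpinf2, also of these 25, read 2.30 and 2.71 in Klf5 KO clones, against 17.9 and 24 in WT clones. Both WT readings lay above the filter intensity but the mean over the arrays did not. Its difference (log2 fold change -0.99) was therefore not tested. Among the 11 measured, 1 rose and 2 fell, while 8 did not pass (limma, adjusted p under 0.05), beside 2.94% of all genes higher and 1.34% lower. Their median log2 fold change was 0.04, beside -0.02 for all 13023 genes measured. Serpinb6a, an intracellular protease inhibitor, read 1702 and 1330 in Klf5 KO clones, against 771.1 and 684.5 in WT clones, and rose by 1.03 ± 0.20 on the log2 scale (adjusted p = 0.026). Its paralog Serpinb6c read 55.7 and 51.5 in Klf5 KO clones, against 110 and 139.5 in WT clones, and fell by 1.01 ± 0.19 (adjusted p = 0.025). This probe set has the suffix _s_at, given to probes that can match related transcripts, so the split between these paralogs is uncertain. Serpinb1b, a paralog of the neutrophil elastase inhibitor, fell by 1.02 ± 0.22 (adjusted p = 0.042), with both Klf5 KO clones, at 5.18 and 4.56, under the filter intensity, against 35.7 and 18.7 in WT clones, so it was measured through the WT clones alone. With 1 array left out, none of the 3 passed in every case: Serpinb6a passed only when WT clone 1 was the array left out (adjusted p from 0.060 to 0.17 otherwise), Serpinb6c likewise (0.095 to 0.13), and Serpinb1b failed in both of the leave-outs that kept it, those of KO clone 1 and KO clone 2 (0.12 to 0.20).

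**Figure D3:**
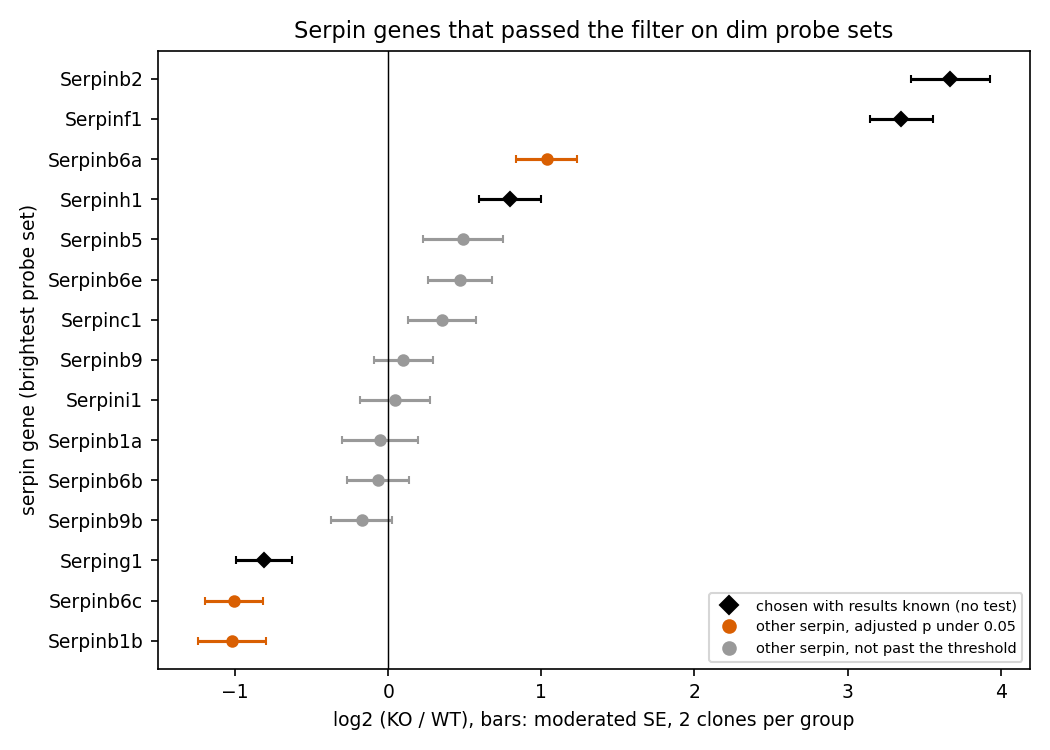
Log2 fold change (KO over WT) with its moderated SE for the 15 serpin genes that passed the filter, 1 probe set per gene. The genes chosen with results known are black diamonds without a test; of the others, Serpinb6a is past the threshold on the higher side and Serpinb6c and Serpinb1b on the lower side (orange).

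Serpinb2 lies in a row of clade B serpin genes on chromosome 1. Of its neighbours in that row on the array, only Serpinb5 had a kept probe set. The RefSeq table lists 12 such genes within a megabase of it, of which 7 are on the array, Serpinb2 included. Serpinb7, next to it on one side, read 4.22 and 3.44 in Klf5 KO clones and 2.30 and 8.23 in WT clones. Serpinb8, on the other side beyond Serpinb10 (not analysed here), read 12.2 and 9.01 in Klf5 KO clones and 8.47 and 1.44 in WT clones on its brighter probe set. Serpinb11, Serpinb12 and Serpinb3a were not kept either. Serpinb5 (maspin), at the end of the row, was kept on 1 probe set, at 28.9 and 34.5 in Klf5 KO clones, against 9.73 and 28.7 in WT clones, and did not pass (log2 fold change 0.49 ± 0.26, adjusted p = 0.33).

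Thbs1, Mrc2, Anxa2, Itgb3 and S100a10 rose among the other genes of the plasminogen system. The list holds plasminogen, its surface receptors, the endocytic receptors of activator and serpin complexes and plasmin inhibitors. It also holds Thbs1, Mrc2, Itgb3, Itgav, Itgb1, Vtn, Hpn, St14, Hgf, Hgfac, Klkb1 and Kng1. The counts and the median below are therefore of a wider list than plasminogen receptors and inhibitors. Among its 17 measured genes, 5 were higher, 0 were lower and 12 were not past the threshold (limma, adjusted p under 0.05). Over all genes 2.94% were higher and 1.34% lower at that threshold. Mrc2 and Itgb3 are counted although they passed the filter through the Klf5 KO clones alone, so for them only a rise could be called. Thbs1, Anxa2 and S100a10 read above the filter intensity in every clone. At an unadjusted p under 0.05, 9 were higher and 1 was lower, beside 10.9% of all genes higher and 10.6% lower. The median log2 fold change was 0.72, beside -0.02 for all genes. Annexin A2 and p11 form a surface receptor for plasminogen and Plat. Anxa2 read 1624 and 1732 in Klf5 KO clones, against 855.1 and 712.1 in WT clones, and rose by 1.09 ± 0.19 (adjusted p = 0.017). S100a10, which encodes p11, read 2426 and 1930 in Klf5 KO clones, against 1172 and 1152 in WT clones, and rose by 0.89 ± 0.19 (adjusted p = 0.041). For both genes the gap between the groups was wider than the difference between clones of a group in the normalized intensities. In the deposited intensities the WT clones differed by more than that gap. Anxa2 read 1369 and 1559 there in Klf5 KO clones, against 1218 and 605 in WT clones. S100a10 read 2120 and 1751 in Klf5 KO clones, against 1650 and 977.4 in WT clones. A dimmer Anxa2 probe set had 0.32 ± 0.18 and did not pass (adjusted p = 0.36), and the same held for the other S100a10 probe sets, at 0.66 and 0.83 (adjusted p = 0.19 and 0.075).

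Thbs1, thrombospondin 1, a matrix protein that binds plasminogen and plasmin, had the largest change of the list. It read 519.5 and 671.8 in Klf5 KO clones, against 156.3 and 88.9 in WT clones, and rose by 2.17 ± 0.26 (adjusted p = 0.0027), with another probe set at 1.54 (adjusted p = 0.0073). Mrc2, an endocytic collagen receptor that associates with Plaur, rose by 1.25 ± 0.19 (adjusted p = 0.010), to 33 and 27.1 in Klf5 KO clones, against 5.08 and 1.73 in WT clones. Itgb3, the beta chain of the vitronectin receptor, rose by 1.01 ± 0.21 (adjusted p = 0.038), to 23.6 and 37.9 in Klf5 KO clones, against 5.10 and 9.05 in WT clones. For Mrc2 and Itgb3 the WT readings were under the filter intensity, so both were measured through the Klf5 KO clones alone. Their rise is therefore given as a description. Lrpap1, the chaperone of the endocytic receptor Lrp1, did not pass, with a log2 fold change of 0.28 ± 0.18 (adjusted p = 0.41). Plasminogen itself (Plg), the adhesion protein vitronectin (Vtn) and the growth factor Hgf were among 6 genes of the list with no kept probe set. With each array left out, Thbs1 passed every time, whereas S100a10 failed every time (adjusted p from 0.071 to 0.23). Anxa2 passed only when WT clone 1 was left out (0.081 to 0.11 otherwise). Itgb3 failed in each of the 3 leave-outs that kept it, those of WT clone 1, WT clone 2 and KO clone 1 (0.069 to 0.14). Mrc2 was kept in 2 leave-outs and failed in that of WT clone 2 (0.051).

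Among the genes of thrombin, tissue factor and protein C, Tfpi2, F3 and Procr rose, and Vwf and F2 fell. Among 15 measured genes, 3 rose and 2 fell, while 10 did not pass (limma, adjusted p under 0.05), beside 2.94% of all genes higher and 1.34% lower, and their median log2 fold change was 0.07. Tfpi2, a secreted inhibitor of plasmin and tissue factor complexes, read 92.5 and 85.4 in Klf5 KO clones, against 17.3 and 11.9 in WT clones, and rose by 1.78 ± 0.19 (adjusted p = 0.0015). F3, tissue factor, the receptor that starts clotting, read 340.6 and 295.8 in Klf5 KO clones, against 127.9 and 89.8 in WT clones, and rose by 1.43 ± 0.21 (adjusted p = 0.0081). Procr, the receptor that presents protein C to the complex of thrombin with thrombomodulin, read 197.5 and 161 in Klf5 KO clones, against 64.1 and 55.5 in WT clones, and rose by 1.36 ± 0.19 (adjusted p = 0.0067). For each of these 3 genes both Klf5 KO clones lay above both WT clones, which being past the threshold already makes likely. Over the 15 measured genes of the list, the Klf5 KO clones lay above the WT clones for 7 and below them for 5. The shares of all probe sets were 23.9% and 28.4%. Tfpi, the main inhibitor of tissue factor, did not pass on its brightest probe set (log2 fold change 0.34 ± 0.19, adjusted p = 0.33), although a dimmer one did (0.97 ± 0.20, adjusted p = 0.035).

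The genes of that list that fell, Vwf and F2, were of low intensity in Klf5 KO clones. Vwf, the von Willebrand factor, read 3.36 and 15.7 in Klf5 KO clones, against 40.7 and 35.1 in WT clones, and fell by 1.12 ± 0.25 (adjusted p = 0.044). F2, prothrombin, read 16.8 and 17.6 in Klf5 KO clones, against 43.1 and 40.2 in WT clones, and fell by 0.79 ± 0.18 (adjusted p = 0.046). KO clone 1 was under the filter intensity for Vwf, which passed the filter through its WT readings. For both genes the Klf5 KO clones lay below the WT clones (28.4% of all probe sets did), which being past the threshold likewise makes likely. With each array left out, Tfpi2 passed every time. Procr failed without KO clone 1 (adjusted p = 0.080) and F3 without KO clone 1 or KO clone 2 (0.052 to 0.097). F2 failed every time (0.10 to 0.19), and Vwf passed only when KO clone 2 was left out (0.090 to 0.21 otherwise).

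**Figure D4:**
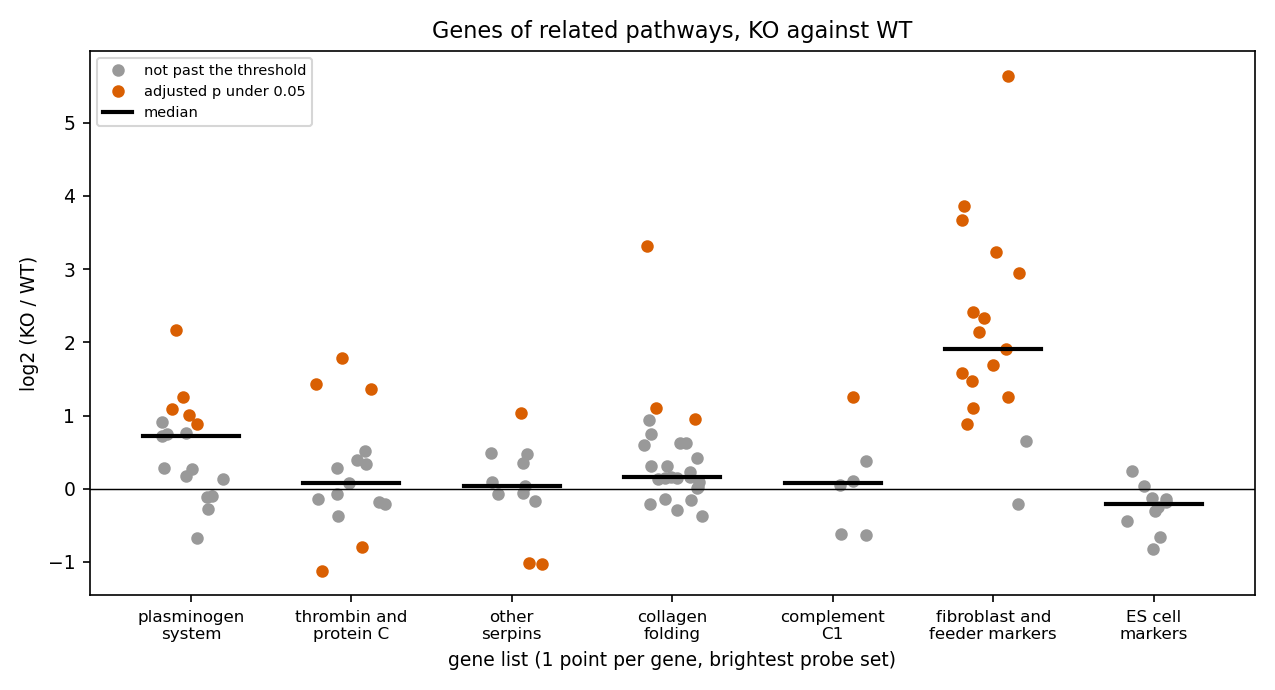
Log2 fold change (KO over WT) of each measured gene of 5 pathway lists and of the fibroblast and ES cell marker lists, 1 point per gene, orange where the adjusted p is under 0.05, with a black bar at the list's median. The plasminogen system has its median at 0.72, the other 4 pathway lists lie between 0.04 and 0.16, and the fibroblast and feeder markers are at 1.91.

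Among the genes that work with Serpinh1 in folding and processing collagen, Lox, P3h3 and Bmp1 rose. Among 25 measured genes, 3 rose and 0 fell, while 22 did not pass (limma, adjusted p under 0.05), beside 2.94% of all genes higher and 1.34% lower. At an unadjusted p under 0.05, 9 were higher and 0 lower, beside 10.9% and 10.6% of all genes, and the median log2 fold change was 0.16. Lox, the lysyl oxidase that cross-links collagen outside the cell, read 365.9 and 463.5 in Klf5 KO clones, against 30.2 and 23.6 in WT clones, and rose by 3.32 ± 0.20 (adjusted p = 7.9e-05). P3h3, a prolyl hydroxylase family member, rose by 1.10 ± 0.19 (adjusted p = 0.019), and Bmp1, a protease that trims procollagen, rose by 0.95 ± 0.20 (adjusted p = 0.038). Other collagen-modifying enzymes of the list did not pass, among them P3h1 (0.13 ± 0.21, adjusted p = 0.77), P3h2 (0.03 ± 0.30, adjusted p = 0.97) and P4ha1 (0.15 ± 0.19, adjusted p = 0.71). Of the general chaperones of the endoplasmic reticulum, Hspa5 (BiP) had 0.16 ± 0.18 (adjusted p = 0.66) and Hsp90b1 had 0.01 ± 0.19 (adjusted p = 0.98), and neither passed. Lox passed with each array left out, Bmp1 failed every time (adjusted p from 0.067 to 0.22), and P3h3 passed only when WT clone 1 was left out (0.070 to 0.14 otherwise).

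Among complement genes linked to Serping1, Masp1 rose. Among 6 measured genes, 1 rose and 0 fell, while 5 did not pass (limma, adjusted p under 0.05), beside 2.94% of all genes higher and 1.34% lower. At an unadjusted p under 0.05, 1 was higher and 2 were lower, beside 10.9% and 10.6% of all genes. C1s1, the protease that Serping1 inhibits, read 21.7 and 20 in Klf5 KO clones, against 37.2 and 44.9 in WT clones, and did not pass (log2 fold change -0.63 ± 0.18, adjusted p = 0.10). C1ra and the 3 chains of C1q had no kept probe set. Masp1, a protease of the lectin pathway and a further target of Serping1, rose by 1.25 ± 0.21 (adjusted p = 0.014) to 54.9 and 61.9 in Klf5 KO clones, against 20.3 and 10.8 in WT clones, on a probe set with the suffix _s_at. It passed only when WT clone 1 was left out (adjusted p from 0.070 to 0.096 otherwise). When all kept probe sets of Masp1 were averaged, its log2 fold change was smaller, at 0.75 (adjusted p = 0.025). Cd59a, which encodes a membrane protein that blocks lysis by complement, did not pass (0.37 ± 0.23, adjusted p = 0.41). Of the genes past the threshold on these 5 lists, Lox and Tfpi2 passed under every alternative setting in which they were measured, and each of the others failed at least with no filter on dim probe sets, while all kept their sign in every alternative that kept them.

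Markers of fibroblasts and feeder cells, which also make many of these proteins, moved with the same arrays. The marker counts in this paragraph stand beside 2.94% of all genes higher and 1.34% lower (limma, adjusted p under 0.05). At an unadjusted p under 0.05 those shares were 10.9% and 10.6%. Of 17 measured fibroblast and feeder markers, 15 rose, 0 fell and 2 did not pass (limma, adjusted p under 0.05; 16 higher and 0 lower at an unadjusted p under 0.05), with a median log2 fold change of 1.91, beside -0.02 for all genes. Their summed intensity was 8357 and 7514 in Klf5 KO clones, against 2104 and 1882 in WT clones, and 2 further markers, Lum and Fap, had no kept probe set. With no filter on dim probe sets, Col1a1, Col3a1, Col5a1, Col6a2, Pdgfrb and Postn did not pass. With 1 array left out, the log2 fold change was 0.89 to 1.96 for Col3a1 and 0.77 to 0.95 for Col6a2. That of Dcn was 4.24 with a constant of 1 and 0.96 with one of 64. At least Dcn and Prrx1 are counted among the 15 although they passed the filter through the Klf5 KO clones alone. For such markers only a rise could be called. All 15 markers past the threshold kept their sign in every alternative that kept them. The part of fibroblasts and feeder cells in the values of Serpinb2, Serpinf1, Thbd, Plat and the lists above was not tested. Of 11 measured markers of parietal and primitive endoderm, 0 rose, 2 fell (the laminin genes Lama1 and Lamc1) and 9 did not pass (3 higher and 2 lower at an unadjusted p under 0.05). The 3 were Sparc, with a log2 fold change of 0.93 (adjusted p = 0.11), and the collagen IV genes Col4a1, with 0.77 (adjusted p = 0.073), and Col4a2, with 0.54 (adjusted p = 0.21). With no filter on dim probe sets, Lama1 still passed (adjusted p = 0.033) and Lamc1 did not (0.14). The summed intensity of the endoderm markers was 4774 and 5446 in Klf5 KO clones, against 4602 and 3171 in WT clones. Gata4 read 18.6 and 15.7 in Klf5 KO clones and 11.7 and 19.4 in WT clones, and Sox7, Foxa2 and Afp had no kept probe set. The part of such cells in the values of Plat and Thbd was not tested. Of 4 measured endothelial and 4 measured macrophage markers, 0 passed in each list (1 higher and 0 lower at an unadjusted p under 0.05 in each), and Cdh5, Emcn and Tie1 of the first list and Ptprc, Itgam and Cd14 of the other had no kept probe set. The endothelial markers summed to 372.5 and 443.1 in Klf5 KO clones, against 375.9 and 423.7 in WT clones, and the macrophage markers to 229.3 and 249.7 in Klf5 KO clones, against 234.2 and 222.1 in WT clones. Of 6 trophoblast markers, 0 rose, 1 fell (the keratin gene Krt18) and 5 did not pass (1 higher and 3 lower at an unadjusted p under 0.05), with a summed intensity of 1359 and 1611 in Klf5 KO clones, against 2597 and 2255 in WT clones. Krt18 did not pass with no filter on dim probe sets (adjusted p = 0.13). The 10 ES cell markers were all measured, and 0 passed (0 higher and 2 lower at an unadjusted p under 0.05), with a summed intensity of 34175 and 35141 in Klf5 KO clones, against 36728 and 37411 in WT clones. As a measure of RNA quality, the 3′ control probe set of the actin gene was compared with its 5′ one: the log2 ratio was 0.75 and 0.52 in Klf5 KO clones, against 0.48 and 0.44 in WT clones, and its part in these values was not tested. The same log2 ratio for the Gapdh control was -0.33 and -0.29 in Klf5 KO clones, against -0.32 and -0.32 in WT clones.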

How the data were processed

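Total RNA of 2 Klf5 KO and 2 WT mouse ES cell clones was labelled with biotin and hybridised to Affymetrix arrays, per the labels' protocols. The values deposited by the authors are linear intensities, 1 for each probe set on each array; no source used here states how they summarised, background-corrected or scaled them, and the table has no detection calls. Genes were named with the platform annotation (34958 probe sets with 1 symbol, 932 with several, 9160 non-control probe sets with none); older symbols on the lists were matched through the RefSeq gene table.

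Intensities were quantile normalized, 16 was added and log2 taken. The 64 control probe sets and those with a mean log2 below the 40th percentile (an intensity of 13.05) were left out. The remaining 27022 were fitted with limma 3.58.1 in R 4.3.3 (moderated variance, with 2 residual degrees of freedom and 6.87 from the prior), KO against WT, with Benjamini-Hochberg adjustment over all of them and a threshold of 0.05. The fit was tested on simulated data. For gene lists the brightest probe set stood for the gene, with _x_at probe sets used as a last choice. Nothing says that the clones were cultured separately on the day of harvest, so p-values measure the spread between these 4 arrays, and their number limits the precision. The genes and lists were chosen with earlier results of these data known. Genes were named by this rule: every probe set of the chosen genes, the genes of each list past the threshold or else the largest changes, the brightest of each list, the neighbours of Serpinb2, and the 3 genes nearest to each of the 2 chosen genes with the largest change. A few others are named as examples after their values were seen (Serpinf2, Igf2r, Hsp90b1, P3h1, P3h2, P4ha1, C1s1, Plg, Vtn, Hgf and the cell type markers). Same-numbered clones did not deviate together (correlation 0.0545 across probe sets), so the number was not used as a pairing.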

Additional observations from a re-analysis of the deposited data

How the results depend on the processing

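The log2 fold changes of the chosen genes kept their sign in all alternatives except the dim probe set of Plat, and 82 of 116 such values moved by less than the spread between clones. The counts of calls were less stable. Over all probe sets, 996 passed, against 189 with a pseudocount of 1, 2060 with one of 64, 190 with no filter, 332 with no between-array normalization, 2060 after median centring (640 higher and 1420 lower, against 659 and 337) and 1955 with a variance trend. With 1 array left out it was 203 to 653, and 4 to 5 of the chosen probe sets passed, against 6. Of the other serpins 3 passed, against 0 with a pseudocount of 1, 0 with no filter, 0 with no between-array normalization and 0 to 2 with 1 array left out. Of the plasminogen system genes 5 passed, against 0 with a pseudocount of 1, 0 with no filter, 1 with no between-array normalization, 8 with a variance trend and 1 to 4 with 1 array left out. Of the thrombin and protein C genes 5 passed, against 1 with a pseudocount of 1, 1 with no filter, 1 with no between-array normalization, 2 with the filter at the 60th percentile and 1 to 3 with 1 array left out. Of the collagen chaperone partners 3 passed, against 1 with a pseudocount of 1, 6 with one of 64, 1 with no filter, 1 with no between-array normalization, 5 with a variance trend, 5 when all probe sets of a gene were averaged and 1 to 3 with 1 array left out. After median centring the split by direction changed for 2 lists. The plasminogen system genes past the threshold were then 4 higher and 1 lower, where Igf2r was called lower (log2 fold change -0.88) and S100a10 did not pass. The other serpins were then 0 higher and 2 lower, without Serpinb6a. The causes were not tested. The median of all probe sets was -0.194 in the deposited values and -0.157 after median centring, so directions there are read relative to that shift. With the clone number as a block, 1390 probe sets passed, 7 of them of the chosen genes, and 3 other serpins, 7 plasminogen system genes, 5 thrombin and protein C genes and 3 collagen chaperone partners. Where 1 array was left out, the lone clone of its group was assumed to vary like those of the other group.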
